A study of Homo sapiens with 24 samples.

Results

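The genes described are 10 that write, read out or remove the repressive chromatin marks H3K27me3 and 5-methylcytosine. They are EZH2, EZH1, SUZ12, EED and KDM6B of the Polycomb system and DNMT1, DNMT3A, DNMT3B, UHRF1 and HELLS of DNA methylation. They were chosen by name, as 10 of 25702 gene identifiers in the count tables, and all 10 passed the filter on low counts that 13356 genes passed. Polycomb repressive complex 2 (PRC2) holds a methyltransferase, EZH2 or EZH1, on a core of SUZ12 and EED, and puts methyl groups on lysine 27 of histone H3. KDM6B is a demethylase that takes them off. DNA methylation is copied at replication by DNMT1, which UHRF1 brings to hemimethylated DNA, and is set on unmethylated DNA by DNMT3A and DNMT3B, while HELLS is a chromatin remodeller that opens nucleosomal DNA to methylation. In proliferating fibroblasts PRC2 holds the INK4 locus silent, and this locus is released during senescence.

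Poly(A) RNA was sequenced from IMR90, a line of human diploid lung fibroblasts, at passage 23-28. All 24 samples carried a retroviral ER:HRAS(G12V), an oncogenic RAS fused to a hormone receptor domain that 4-hydroxytamoxifen (4OHT) switches on. They fall into 4 groups of 6 replicates each. Growing samples had the empty MSCV vector and no agent. The shHMGA1 samples had a miR30-based hairpin against HMGA1, a chromatin architectural protein, in the same vector and no agent. RIS samples (RAS-induced senescence) had the empty vector and 6 days of 4OHT, and RIS+shHMGA1 samples had the hairpin and 6 days of 4OHT. No group had 4OHT without the RAS transgene, so the agent and RAS cannot be told apart. The labels do not name clones or infections, and p-values measure the spread between these samples.

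The total count per sample ran from 8698070 to 23103424. HMGA1, the target of the hairpin, lay between 639 and 861 CPM (counts scaled to the normalised library size) in the 12 vector samples and between 54.4 and 262 CPM in the 12 hairpin samples. HMGA2 lay between 521 and 1116 CPM in all 24. The 8 fibroblast markers summed to 4435 CPM or more in every sample, whereas 4 epithelial, 3 endothelial and 4 leukocyte markers summed to at most 1.35, 2.01 and 1.38 CPM. Libraries of 2 samples stood apart from their labels. Summed over 14 proliferation markers, growing replicate 4 had 237 CPM against 1258 to 1645 CPM in the other growing samples, and RIS replicate 2 had 1223 CPM against 222 to 315 CPM in the other RIS samples. The 7 markers of the senescence secretome, such as IL6 and CXCL8, summed to 170000 CPM in growing replicate 4 against 5973 to 13340 CPM in the other growing samples, and to 8255 CPM in RIS replicate 2 against 61170 to 139200 CPM in the other RIS samples. Each of these libraries thus went against its label, and whether the labels were exchanged was not tested. Both stayed in their labelled groups, and results that rest on them are given with all 24 samples and with the other 22. The 2 were picked on values of these same data, so fits without them give no independent support to a difference between groups.

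The promoters of several of these genes hold the letters of E2F sites, the element of many genes of the replication programme. They are shown because 4 of the genes that fell together with RAS have such a match, and so do 2 that did not fall. Each line is the match in capitals with 10 bases on either side, read 5′ to 3′ along the gene's strand in RefSeq, build GRCh38.p14.
EZH2 (chr7:148884273-148884300, minus strand): ggctgccgcgTTTGGCGCtcggtccggt
DNMT1 (chr19:10194938-10194965, minus strand): atcggtttccGCGCGAAAagccggggcg
UHRF1, upstream start (chr19:4909477-4909504, plus strand): ccgagttttcGCGGGAAAaaaatcagag
UHRF1, middle start (chr19:4909974-4910001, plus strand): ccgagcccgaTTTCGCGCgccctgagtt
HELLS, farther match (chr10:94545702-94545729, plus strand): accgcaagctGCGCCAAAtctcgcgcag
HELLS, nearer match (chr10:94545770-94545797, plus strand): atgacaggatTTTCCCGCgaaggagaag
EZH1 (chr17:42745138-42745165, minus strand): cggggttttgGCGGCAAAtgacagtagt
SUZ12 (chr17:31936808-31936835, plus strand): gacccctaatTTTCCCGCgaattcagtt

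The search took the 4 forms TTTGGCGC, TTTCGCGC, TTTCCCGC and TTTGCCGC on both strands, in windows of 250 bases before to 50 bases after each annotated start. At least 1 form was in 3.31% of 35116 promoters and in 3.99% of 27305 genes. It was in 6 of the 10 genes. The match began 76 and 8 bases before the start of HELLS, 14 and 160 bases before starts of UHRF1 and 2 bases before that of DNMT1, and just after that of EZH2. The matches of EZH1 and SUZ12 began 115 and 189 bases before the start. DNMT3B, whose RNA also fell, had none of these letters in its window, and nor did EED, KDM6B or DNMT3A. The box CCAAT, which none of these forms contains, was in 6 of the 10 genes (EZH2, SUZ12, EED, DNMT3B, UHRF1 and HELLS) and in 39.7% of genes. The element TTTGAA was in SUZ12 and DNMT3A and in 18.2% of genes. Matches are letters in a window and were not measured as binding.

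In hairpin cells, RAS lowered 5 of the 10 genes and raised none. UHRF1 and HELLS were 7.91-fold and 7.49-fold lower in RIS+shHMGA1 than in shHMGA1, DNMT3B 3.52-fold, EZH2 3.28-fold and DNMT1 2.63-fold. DNMT3B had only 2 to 11 counts a library in RIS+shHMGA1, and its place among the genes tested rests on the groups without 4OHT. EZH1, SUZ12, EED, KDM6B and DNMT3A did not pass the test. A gene was called at a Benjamini-Hochberg FDR under 0.01 over all genes tested and an absolute log2 fold change over 0.58, in edgeR's quasi-likelihood test. Among all 13356 genes, 19.5% were called lower and 19.6% higher in this comparison. For the same 5 genes every sample of the RAS group lay below every sample of the other group, as for 22.5% of all genes. The median log2 fold change of the 10 genes was -0.80, against -0.02 over all genes. In bulk RNA, fewer cells that express a gene and less RNA per cell cannot be told apart.

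In vector cells, with all 24 samples, no gene of the 13356 was called (0%) in RIS against growing, although 4407 had an unadjusted p under 0.05 and DESeq2 called 829. Of the 10 genes 5 had an unadjusted p under 0.05, and DESeq2 called 1, EZH2. Without growing replicate 4 and RIS replicate 2, the same 5 genes were called lower and none higher. The background was then 20.5% lower and 19.2% higher, and the groups of these 5 genes did not overlap, as for 19.3% of all genes. The 2 libraries were singled out by proliferation and secretome markers of the same data, and the 5 genes moved with those markers. The calls and the lack of overlap without these libraries are thus no independent support. Calls in RIS+shHMGA1 against shHMGA1 did not change for the 10 genes without these 2 libraries. Then 44.4% of all genes were called in either direction, 2936 of 13416 lower and 3023 higher. Marker lists moved with the 5 genes. All 14 proliferation markers were called lower in RIS+shHMGA1 against shHMGA1, and their sum was 255 to 299 CPM against 1227 to 1715 CPM. Of 8 fibroblast markers 7 were called lower (sum 4435 to 5815 CPM against 14060 to 20040 CPM), and all 7 markers of the senescence secretome were called higher (sum 131000 to 234800 CPM against 16820 to 28230 CPM). Their part in the fall of the 5 genes was not tested.

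Samples numbered 5 and 6 were also compared apart from those numbered 1 to 4, since an earlier look at these data had shown the RAS samples to divide along that line. The fall of the 5 genes in hairpin cells was alike in both sets, as differences of mean log2 CPM. For numbers 1 to 4 it was -1.63 for EZH2, -1.30 for DNMT1, -1.68 for DNMT3B, -2.97 for UHRF1 and -2.71 for HELLS. For numbers 5 and 6 it was -1.78, -1.54, -1.69, -3.00 and -2.86 in the same order. In hairpin cells EED differed by 0.13 in numbers 1 to 4 and by -0.70 in numbers 5 and 6. KDM6B differed by 0.29 and 0.67 in hairpin cells, positive in both sets, and by 0.09 and 0.83 in vector cells. Without growing replicate 4 and RIS replicate 2 the 0.09 became -0.02. No label names such sets as a batch.

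**Figure D1:**
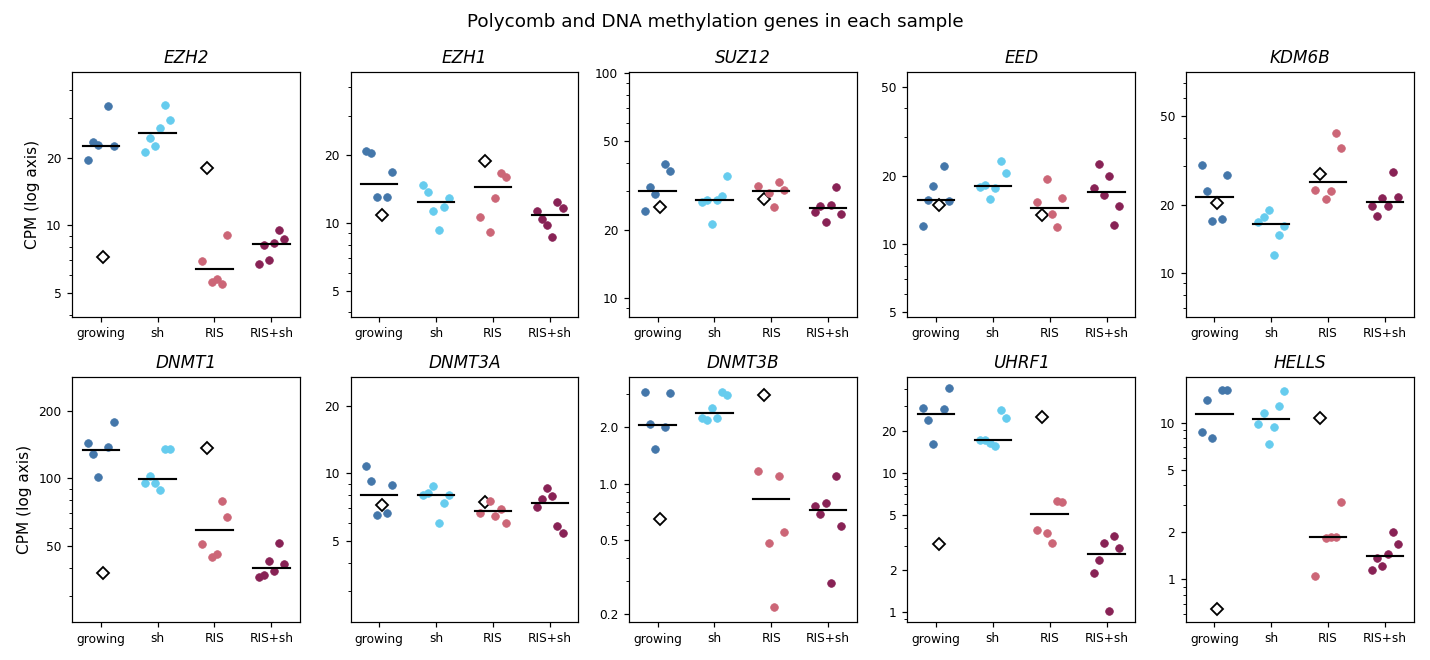
Normalised CPM on a log axis for each of the 10 genes, with 1 point per sample in the groups growing, shHMGA1 (sh), RIS and RIS+shHMGA1 (RIS+sh), and the median of 6 samples as a bar. Open diamonds are growing replicate 4 and RIS replicate 2. For EZH2, DNMT1, DNMT3B, UHRF1 and HELLS the RIS+shHMGA1 points all lie below the shHMGA1 points, and the diamonds lie with the other group.

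EZH2 is the methyltransferase subunit that dividing cells use most. In shHMGA1 its level ran from 21.1 to 34.4 CPM with a median of 25.8, and in RIS+shHMGA1 from 6.73 to 9.53 CPM with a median of 8.25. In growing cells 5 samples lay between 19.5 and 33.8 CPM and replicate 4 at 7.20, and in RIS 5 samples lay between 5.50 and 9.04 CPM and replicate 2 at 18.0. The 6 shHMGA1 samples are all high and the 6 RIS+shHMGA1 samples all low, without overlap. The log2 difference was -1.71 ± 0.29 (SE, n = 6 and 6, edgeR FDR 0.00022) in hairpin cells. In vector cells it was -1.35 ± 0.28 (FDR 0.014) over all samples and -1.89 ± 0.17 (FDR 1.2e-09) without the 2 libraries. EZH2 was lower in RIS in 6 of 6 same-numbered comparisons and in 4 of 4 without the 2 libraries. A shared number is not known to mark a pair.

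EZH1, the paralogue that also serves resting cells, changed little. It ran from 9.27 to 14.8 CPM in shHMGA1, 8.63 to 12.4 CPM in RIS+shHMGA1, 10.8 to 20.8 CPM in growing and 9.14 to 18.8 CPM in RIS, so all 4 groups overlapped. The log2 difference with RAS was -0.20 (95% interval -0.57 to 0.18) in hairpin cells and -0.18 (-0.55 to 0.19) in vector cells. Without the 2 libraries the latter was -0.37 (-0.72 to -0.02, FDR 0.063). The sets of numbers then differed in vector cells. The difference of mean log2 CPM was -0.71 in numbers 1 to 4 and 0.15 in numbers 5 and 6.

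The balance of the paralogues was compared within each sample as the log2 ratio of EZH2 to EZH1, from log2 CPM with a prior count of 2. It averaged 1.095 ± 0.40 (SD, n = 6) in shHMGA1 and -0.40 ± 0.22 in RIS+shHMGA1. The lowest shHMGA1 sample, at 0.51, lay above the highest RIS+shHMGA1 sample, at -0.05. The difference of -1.49 had an exact permutation p of 0.0022, the smallest that 6 against 6 samples allow (adjusted over the 8 ratio tests, 0.0087). In vector cells the ratio averaged 0.35 ± 0.68 in growing and -0.81 ± 0.51 in RIS, a difference of -1.16 (exact permutation p = 0.0087, adjusted 0.017). The ratio in shHMGA1 exceeded that in growing by 0.74 (exact permutation p = 0.046, adjusted 0.061), which fails the correction. Between RIS+shHMGA1 and RIS it differed by 0.42 (exact permutation p = 0.0996, adjusted 0.114), and by 0.56 (exact permutation p = 0.013) without RIS replicate 2.

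**Figure D2:**
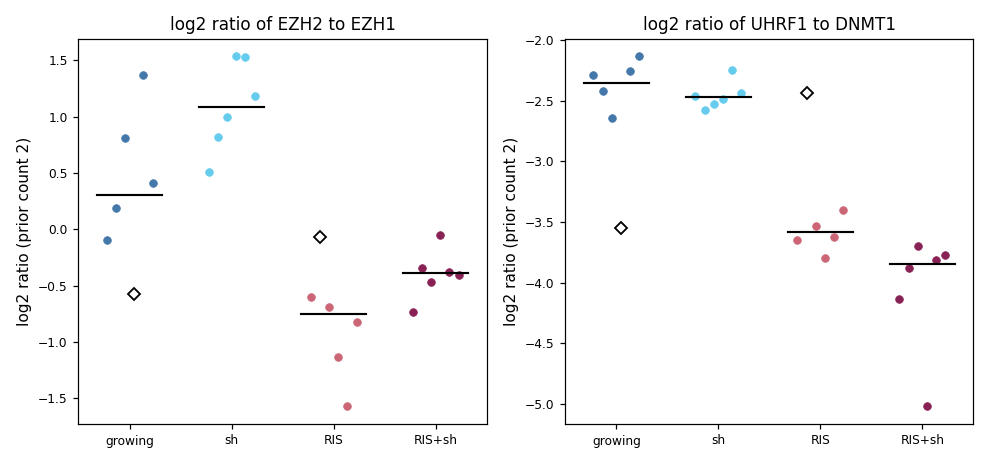
Log2 ratio of EZH2 to EZH1 and of UHRF1 to DNMT1 in each sample, from log2 CPM with a prior count of 2, with 1 point per sample, the median as a bar, and open diamonds for growing replicate 4 and RIS replicate 2. The EZH2 to EZH1 ratio (not corrected for length) is above 0 in all 6 shHMGA1 samples and below 0 in all 6 RIS and 6 RIS+shHMGA1 samples, and the lowest UHRF1 to DNMT1 ratio, -5.02, is RIS+shHMGA1 replicate 4.

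SUZ12 and EED, the core that every PRC2 complex needs, kept overlapping ranges in all groups. SUZ12 ran from 21.3 to 34.9 CPM in shHMGA1 and 21.7 to 31.1 CPM in RIS+shHMGA1. EED ran from 15.9 to 23.3 CPM and from 12.1 to 22.6 CPM in the same groups. In growing and RIS, SUZ12 had 24.4 to 39.3 CPM and 25.4 to 32.8 CPM, and EED 12.1 to 22.1 CPM and 11.9 to 19.3 CPM. Their log2 differences with RAS in hairpin cells were -0.12 (95% interval -0.38 to 0.14) and -0.14 (-0.46 to 0.18), so that a fall as large as that of EZH2 lies outside both intervals. In vector cells the differences were -0.07 (-0.33 to 0.19) for SUZ12 and -0.13 (-0.46 to 0.19) for EED. SUZ12 has a near-identical copy, SUZ12P1, with 2 to 15 counts a library against 177 to 614 for SUZ12.

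KDM6B, the demethylase, was the member whose differences with RAS were positive. Its level was 11.97 to 19.1 CPM (median 16.6) in shHMGA1 and 17.9 to 28.1 CPM (median 20.8) in RIS+shHMGA1, ranges that overlap. The log2 difference was 0.42 ± 0.18 (FDR 0.041), higher in 6 of 6 same-numbered comparisons, and did not reach either threshold. In vector cells it was 0.35 ± 0.17 (FDR 0.16) with all samples and 0.33 ± 0.19 (FDR 0.12) with 22. The levels were 17.1 to 30.3 CPM in growing and 21.3 to 41.9 CPM in RIS. Among numbers 1 to 4 without the 2 libraries, the difference of mean log2 CPM in vector cells was -0.02.

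UHRF1, which finds hemimethylated DNA behind the replication fork, had the largest fold of the 10 in hairpin cells, close to that of HELLS, whose fold was the larger in vector cells. Its level was 15.7 to 28.4 CPM (median 17.2) in shHMGA1 and 1.02 to 3.51 CPM (median 2.62) in RIS+shHMGA1. In growing cells 5 samples had 16.1 to 40.6 CPM and replicate 4 had 3.09, and in RIS 5 samples had 3.16 to 6.26 CPM and replicate 2 had 25.1. The highest RIS+shHMGA1 sample lay below the lowest shHMGA1 sample by more than the range of the RIS+shHMGA1 group. The log2 difference was -2.98 ± 0.52 (FDR 0.00024) in hairpin cells, and in vector cells -1.55 ± 0.47 (FDR 0.033) with all samples and -2.57 ± 0.25 (FDR 6.6e-09) with 22.

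DNMT1, the maintenance methyltransferase, fell too. It had 88.2 to 135 CPM (median 99.0) in shHMGA1 and 36.3 to 51.5 CPM (median 40.1) in RIS+shHMGA1, a log2 difference of -1.40 ± 0.28 (FDR 0.00049). In growing cells 5 samples had 101.4 to 178.5 CPM and replicate 4 had 37.9, and in RIS 5 samples had 44.5 to 79.1 CPM and replicate 2 had 136. The groups did not overlap without those 2 libraries, and the log2 difference was then -1.26 ± 0.17 (FDR 7.3e-07), against -0.78 ± 0.28 (FDR 0.058) with them.

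UHRF1 fell relative to DNMT1 within samples. The log2 ratio of UHRF1 to DNMT1 averaged -2.45 ± 0.11 (SD, n = 6) in shHMGA1 and -4.05 ± 0.50 in RIS+shHMGA1, a difference of -1.60 (exact permutation p = 0.0022, adjusted 0.0087). In vector cells the difference was -0.86 (exact permutation p = 0.026, adjusted 0.042), and -1.25 (exact permutation p = 0.0079, the smallest 5 against 5 samples allow) without the 2 libraries. Without growing replicate 5, growing replicate 6 or RIS replicate 4 the exact permutation p in vector cells was 0.052 each time. The ratio in RIS+shHMGA1 differed from that in RIS by -0.65 (exact permutation p = 0.0065, adjusted 0.017). The difference between shHMGA1 and growing was 0.09 (exact permutation p = 0.86).

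The de novo enzymes went separate ways. DNMT3A had 6.03 to 8.78 CPM in shHMGA1 and 5.46 to 8.60 CPM in RIS+shHMGA1, with a log2 difference of -0.13 (95% interval -0.41 to 0.16). DNMT3B had 2.19 to 3.08 CPM in shHMGA1 and 0.29 to 1.103 CPM in RIS+shHMGA1, without overlap, and fell by 1.82 ± 0.43 on the log2 scale (FDR 0.0014). Its counts were low, 25 to 50 a library in shHMGA1 and 2 to 11 in RIS+shHMGA1, fewer than for any of the other 4 genes. In a fit of the RIS+shHMGA1 and RIS samples alone DNMT3B did not pass the low-count filter. Its place among the genes tested thus rests on the groups without 4OHT, where it is high. In vector cells, 5 growing samples had 1.53 to 3.09 CPM of DNMT3B and replicate 4 had 0.64, and 5 RIS samples had 0.22 to 1.16 CPM and replicate 2 had 2.99. DNMT3A had 6.57 to 10.8 CPM in growing and 6.03 to 7.54 CPM in RIS. The log2 difference of DNMT3B in vector cells was -0.95 ± 0.40 (FDR 0.10) with all samples and -1.74 ± 0.30 (FDR 2.7e-05) with 22, and that of DNMT3A -0.27 ± 0.14 (FDR 0.18) and -0.33 ± 0.15 (FDR 0.057).

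HELLS, the remodeller, had 7.37 to 16.1 CPM (median 10.7) in shHMGA1 and 1.14 to 2.01 CPM (median 1.42) in RIS+shHMGA1. In growing cells 5 samples had 8.02 to 16.4 CPM and replicate 4 had 0.64, the lowest HELLS value of the 24, and in RIS 5 samples had 1.06 to 3.10 CPM and replicate 2 had 10.8. All RAS samples other than RIS replicate 2 lay under all samples without 4OHT other than growing replicate 4. The log2 difference was -2.90 ± 0.54 (FDR 0.00032) in hairpin cells, and in vector cells -1.64 ± 0.49 (FDR 0.032) with all samples and -2.68 ± 0.26 (FDR 4.5e-09) with 22.

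**Figure D3:**
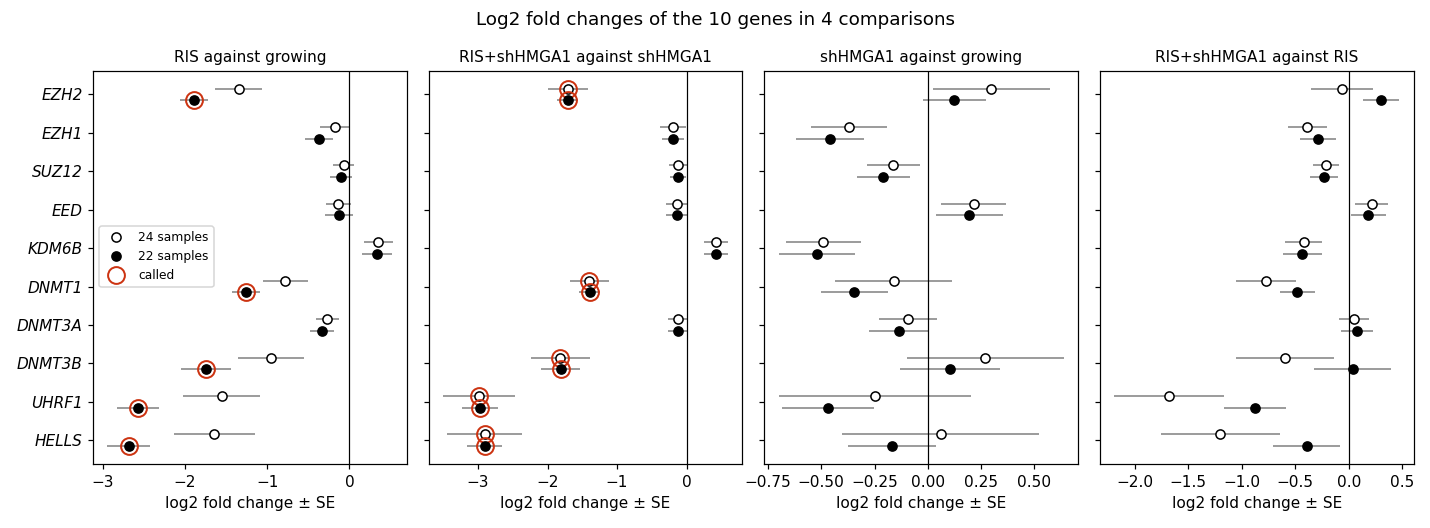
Log2 fold change ± SE of the 10 genes in 4 comparisons, with all 24 samples (open points) and without growing replicate 4 and RIS replicate 2 (filled points). Red rings mark called values. In both RAS comparisons EZH2, DNMT1, DNMT3B, UHRF1 and HELLS carry rings, in RIS against growing with 22 samples only, and none of the 10 genes carries a ring in the hairpin comparisons.

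Compared per kilobase of the canonical transcript, DNMT1 had the highest level in growing cells without replicate 4, 26.2 ± 5.28 CPM per kb (SD, n = 5). EZH2 (9.19 ± 2.06), EED (7.99 ± 1.77), SUZ12 (7.13 ± 1.33) and UHRF1 (7.11 ± 2.29) followed, and neighbours in that order differed by less than their SD. HELLS (4.06 ± 1.301), EZH1 (3.63 ± 0.83) and KDM6B (3.42 ± 0.87) were likewise within their spread of each other. DNMT3A (0.89 ± 0.19) and DNMT3B (0.54 ± 0.16) were the lowest. In RIS+shHMGA1 (n = 6) the order was EED (8.28 ± 1.79), DNMT1 (7.82 ± 1.06), SUZ12 (5.65 ± 0.71), KDM6B (3.20 ± 0.52), EZH2 (3.05 ± 0.40) and EZH1 (2.31 ± 0.30). DNMT3A (0.75 ± 0.13), UHRF1 (0.63 ± 0.23), HELLS (0.47 ± 0.10) and DNMT3B (0.16 ± 0.06) stood below these, all in CPM per kb. SUZ12 and EED thus stood above EZH2 and EZH1 in RIS+shHMGA1, whereas in growing cells EZH2, EED and SUZ12 stood together. Growing and RIS+shHMGA1 differ in both hairpin and RAS. In shHMGA1 EZH2 had 9.98 ± 1.85, EED 9.09 ± 1.25 and SUZ12 6.15 ± 0.97 CPM per kb. In RIS without replicate 2 EZH2 had 2.48 ± 0.56, EED 7.28 ± 1.35 and SUZ12 6.64 ± 0.62 CPM per kb. EED and DNMT1 in RIS+shHMGA1 differed by less than their SD. The levels assume the canonical isoform, which was not measured.

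With the hairpin alone none of the 10 genes was called. In shHMGA1 against growing, 0.270% of all genes were called with 24 samples and 2.59% with 22. Of the 10 genes 2, KDM6B and EZH1, had an unadjusted p under 0.05 with 24 samples, against 1759 of all 13356 genes. DESeq2 called 0 of the 10 and 98 over all genes. The differences nearest the threshold with 22 samples were those of KDM6B, -0.52 ± 0.18 (FDR 0.045), and EZH1, -0.46 ± 0.16 (FDR 0.047). UHRF1, at -0.47 ± 0.21 (FDR 0.11), and DNMT1, at -0.34 ± 0.16 (FDR 0.11), were lower in shHMGA1 too, without a call. EZH1 was lower in shHMGA1 in 6 of 6 same-numbered comparisons with all samples, and its ranges overlapped. EZH2 differed by 0.12 (95% interval -0.18 to 0.43) with 22 samples.

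With RAS on, none of the 10 genes was called for the hairpin either in the fit without a block, where 2.55% of all genes were called with 24 samples and 12.5% with 22. Of the 10 genes 5 had an unadjusted p under 0.05 with 24 samples, a share like that of all genes (6647 of 13356). DESeq2 called 1 of the 10, UHRF1, and 1533 over all genes. UHRF1 was lower in RIS+shHMGA1 than in RIS in 6 of 6 same-numbered comparisons, with a log2 difference of -1.68 ± 0.52 (FDR 0.022) with 24 samples and -0.88 ± 0.29 (FDR 0.020) with 22. DNMT1 was also lower in 6 of 6, at -0.78 ± 0.28 (FDR 0.037) and -0.48 ± 0.16 (FDR 0.023). Neither reached the FDR threshold in these fits. With the replicate number as a block and without the 2 libraries both did, and UHRF1 was called, at -0.84 ± 0.20 (FDR 0.0031), whereas DNMT1, at -0.43 ± 0.11 (FDR 0.0047), stayed under the fold threshold. EZH2 differed by -0.07 ± 0.29 with 24 samples and by 0.30 ± 0.17 (FDR 0.16) with 22.

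Whether RAS acted differently with and without the hairpin was tested as the interaction. No gene was called (0%) with 24 samples, where 1371 genes had an unadjusted p under 0.05 and DESeq2 called 3, and 0.00745% of genes were called with 22. None of the 10 genes was among them, and 1, UHRF1, had an unadjusted p under 0.05 with 24 samples. Their interaction terms ran from -1.43 (UHRF1, 95% interval -2.84 to -0.02, FDR 0.43) to 0.14 (DNMT3A) with 24 samples. Without the 2 libraries that of UHRF1 was -0.41 (-1.15 to 0.33) and that of EZH2 0.17 (-0.29 to 0.64).

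Other genes of both pathways were read against the same background, 19.6% of all genes called higher and 19.5% lower in RIS+shHMGA1 against shHMGA1. With all 24 samples none of the genes in these lists was called in RIS against growing, so that calls in vector cells rest on the fit without the 2 libraries. Of 9 accessory subunits of PRC2, 7 were tested, and in RIS+shHMGA1 against shHMGA1 1 was higher, 1 lower and 5 not called, no more than that background. PHF19, a Polycomb-like protein that reads H3K36me3, had 45.7 to 58.9 CPM in shHMGA1 and 18.9 to 33.0 CPM in RIS+shHMGA1 and fell by 1.12 ± 0.21 on the log2 scale (FDR 0.00035). EPOP, a subunit of a PRC2 form that lacks JARID2, went from 0.45 to 1.05 CPM up to 1.204 to 3.95 CPM and rose by 1.66 ± 0.32 (FDR 0.00039), on 5 to 27 counts a library. Whether EPOP would pass the low-count filter on its shHMGA1 samples alone was not tested, and its fold rests on few counts. In RIS against growing, PHF19 differed by -0.81 (FDR 0.020) with 24 samples and fell by 1.24 with 22, and EPOP differed by 0.84 (FDR 0.057) and rose by 1.17. JARID2, named after its values were seen, differed by 0.49 (FDR 0.031) with 24 and rose by 0.60 ± 0.15 (FDR 0.0011) with 22. PHF1 of this list and RING1 of the next were listed at 0 or 1 count in every library, which was not read as absence of their RNA.

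Of 22 PRC1 subunits, the complex that binds H3K27me3 and ubiquitinates histone H2A, 21 were tested, and 4 were higher and 3 lower with RAS in hairpin cells, shares near or below the background. PCGF1 (1.08 ± 0.24), YAF2 (0.89 ± 0.26), RNF2 (0.86 ± 0.22), the catalytic ring finger protein, and PHC1 (0.72 ± 0.16) rose. CBX2, a chromodomain subunit, fell by 2.37 ± 0.52 (FDR 0.00088), from 11 to 47 counts a library in shHMGA1 to 1 to 7 in RIS+shHMGA1. Those RIS+shHMGA1 counts are too few for the low-count filter, which CBX2 passed through samples where it is higher. SCMH1 (-0.89 ± 0.19) and KDM2B (-0.69 ± 0.18), which brings a PCGF1 complex to CpG islands, fell too. In vector cells with 22 samples 3 were higher (PCGF1, RNF2 and PHC1) and 3 lower (CBX2, SCMH1 and SCML2, the last of which was named after its values were seen). With 22 samples 5 were higher and 4 lower in hairpin cells. The median over the list with 24 was 0.07, near the -0.02 of all genes. Of the other erasers of Polycomb marks, 4 of 5 were tested, and only ASXL1, a partner of the H2A deubiquitinase BAP1, was called in hairpin cells, at -0.75 ± 0.19 (FDR 0.0019). KDM6A, the X-linked relative of KDM6B, differed by -0.19 ± 0.15.

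The partners of DNA methylation fell with DNMT1, UHRF1 and HELLS. Of 6 listed genes 5 were tested and 4 were called lower in hairpin cells. CDCA7, which recruits HELLS to chromatin, had 4.40 to 12.1 CPM in shHMGA1 and 0.78 to 1.46 CPM in RIS+shHMGA1 and fell by 2.95 ± 0.60 on the log2 scale (FDR 0.00053). Its relative CDCA7L fell by 1.37 ± 0.26, UHRF2 by 0.70 ± 0.15 and PCNA, the replication clamp that DNMT1 binds, by 0.62 ± 0.17. USP7, which stabilises DNMT1 and UHRF1, differed by -0.31 ± 0.17 (FDR 0.11). In vector cells with 22 samples the same 4 were called lower, with CDCA7 at -3.44 ± 0.39, against -2.11 ± 0.56 (FDR 0.021, not called) with 24.

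Of 4 genes that remove DNA methylation 2 fell. TET1, an enzyme that oxidises 5-methylcytosine, had 10 to 30 counts a library in shHMGA1 and 0 to 3 in RIS+shHMGA1, with a log2 difference of -2.93 ± 0.82 (FDR 0.0045), and TET2 fell by 0.88 ± 0.23 (FDR 0.0027). The RIS+shHMGA1 counts of TET1 are too few for the low-count filter. Its place among the genes tested thus rests on samples where it is higher, and its fold on a few counts. TET3 (-0.57 ± 0.26, FDR 0.058) and the glycosylase TDG (0.59 ± 0.24, FDR 0.040) were not called with 24 samples. With 22 samples, TDG was called higher in hairpin cells and TET3 lower in vector cells (-0.78 ± 0.20, against -0.47 ± 0.25 with 24). Of 8 readers of methylated CpG, ZBTB38 (-1.03 ± 0.22, FDR 0.00078) and MBD3 (-0.59 ± 0.18, FDR 0.0073) were called lower and none higher in hairpin cells, the latter just past the fold threshold, and 1 of the 8 was called with RLE factors or DESeq2. With 2 of 8 called lower this list was close to the background. With 22 samples ZBTB4, named after its values were seen, was called lower as well, at -0.60 ± 0.14. The median of the readers was -0.32.

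**Figure D4:**
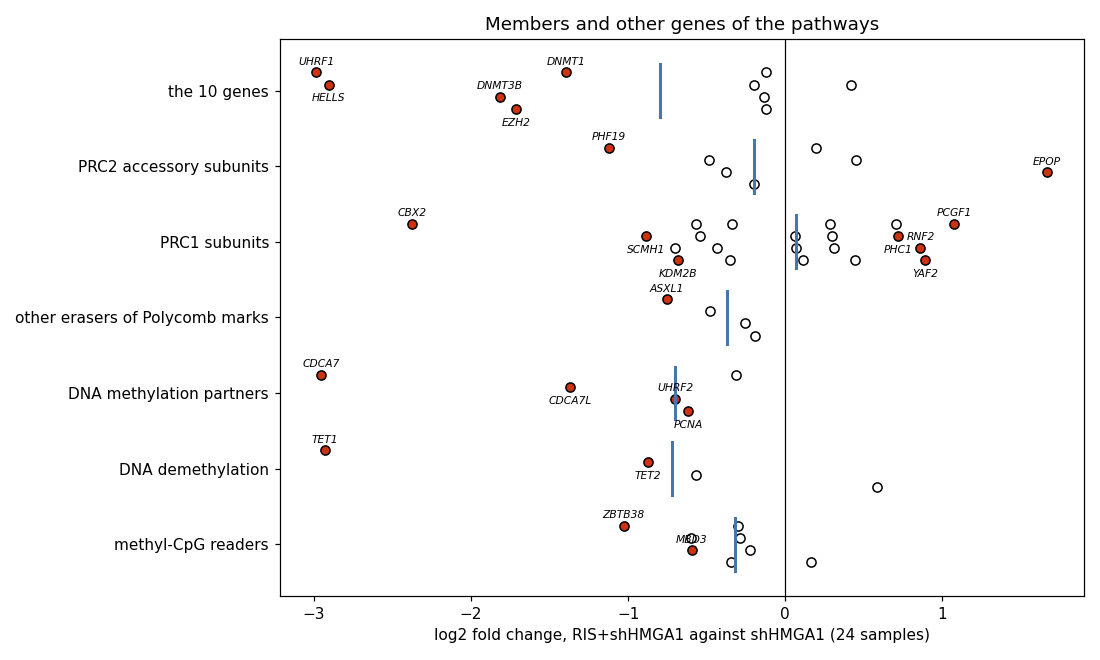
Log2 fold change in RIS+shHMGA1 against shHMGA1 (24 samples) of the 10 genes and the tested genes of 6 other lists, 1 point per gene, spread vertically for legibility. Filled points are called genes and the blue line is the list's median. Called genes of the DNA methylation partners, DNA demethylation and methyl-CpG readers lie below 0, and those of the PRC1 subunits lie on either side, from -2.37 for CBX2 to 1.08 for PCGF1.

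The INK4 locus is the best known Polycomb target in fibroblasts, and its gene CDKN2A was called higher with RAS in hairpin cells, and in vector cells only without the 2 libraries. CDKN2A, the gene of p16INK4A and p14ARF, whose transcripts share exons and were counted together, had 5.06 to 9.72 CPM (median 5.88) in shHMGA1 and 15.2 to 26.9 CPM (median 22.8) in RIS+shHMGA1. The groups did not overlap, and it rose by 1.72 ± 0.35 on the log2 scale (FDR 0.00053). In vector cells 5 growing samples had 4.00 to 4.53 CPM and replicate 4 had 17.9, and 5 RIS samples had 10.6 to 14.8 CPM and replicate 2 had 3.54. In vector cells the log2 difference was 0.81 ± 0.35 (FDR 0.11, not called) with all samples and 1.58 ± 0.18 (FDR 9.0e-08) with 22, and with 22 RIS+shHMGA1 exceeded RIS by 0.83 ± 0.16 (FDR 0.0014), a call that 24 samples did not give (1.01 ± 0.34, FDR 0.030).

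CDKN2B, the neighbouring gene of p15INK4B, had its highest median in RIS. It had 12.8 to 28.9 CPM in 5 RIS samples and 10.3 to 17.6 CPM in RIS+shHMGA1, ranges that overlap, against 4.44 to 10.8 CPM in 5 growing samples and 7.85 to 11.3 CPM in shHMGA1. In vector cells the log2 difference was 1.09 ± 0.25 (FDR 0.015, not called) with all samples and 1.35 ± 0.22 (FDR 1.7e-05) with 22. In hairpin cells it was not called with 24 samples (0.59 ± 0.25, FDR 0.041) or 22 (0.60 ± 0.21, FDR 0.014), and its difference with 22 between RIS+shHMGA1 and RIS was -0.61 ± 0.21 (FDR 0.026). The interaction was -0.50 ± 0.35 (FDR 0.46) with 24 samples and -0.75 ± 0.31 (FDR 0.99) with 22, so that the effect of RAS on CDKN2B was not shown to differ between vector and hairpin cells.

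Of 7 germline genes that somatic cells keep methylated, 2 passed the filter, and DAZL, an RNA-binding protein of germ cells, was called. It had 0 to 4 counts a library in shHMGA1 and 14 to 95 in RIS+shHMGA1, or at most 0.33 CPM against 1.39 to 8.25 CPM (FDR 0.0019). In vector cells 5 growing samples had 0 or 1 count and replicate 4 had 76, while 5 RIS samples had 14 to 111 counts and replicate 2 had 0 (FDR 3.1e-07 with 22 samples and 0.26 with 24). No fold is given, since the lower groups rest on a few counts. DAZL passed the low-count filter only through the samples where it is high. Its call is to be read with that limit, beside the listed genes that the same filter dropped. SYCP3, a protein of the meiotic chromosome axis, had 7 to 35 counts in every library and a log2 difference of 0.33 ± 0.28 (FDR 0.30). DDX4, MAEL, TEX101, TDRD6 and BRDT had at most 2 counts in any library and were not tested. DNA methylation itself was not measured in these samples.

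**Figure D5:**
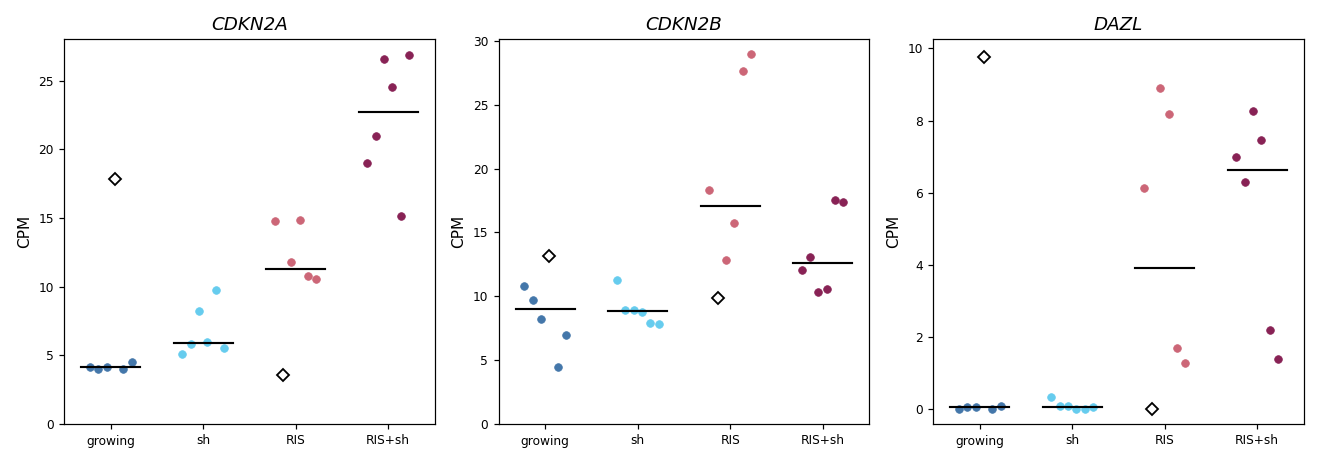
Normalised CPM of CDKN2A, CDKN2B and DAZL on linear axes, with 1 point per sample, the median of 6 samples as a bar, and open diamonds for growing replicate 4 and RIS replicate 2. The median of CDKN2A is highest in RIS+shHMGA1 and that of CDKN2B in RIS, and DAZL is at or near 0 CPM in 11 of 12 samples without 4OHT.

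The genes with the most similar pattern to each member were found by Pearson's r of log2 CPM over the 24 samples of all 4 groups, and r within the groups was not computed. EZH2 was closest to TMPO, FBXO5 and ESCO2 (r = 0.989), UHRF1 to CHAF1A (0.990), NCAPD3 (0.986) and COL15A1 (0.985), and HELLS to CLSPN (0.987), SMC4 and MCM3 (0.985). DNMT1 was closest to ADCY3 (0.994), POLE (0.991) and COL18A1 (0.986), and DNMT3B to PKN3 (0.940), CAND2 (0.934) and OAS3 (0.932). For the members that were not called the closest genes had lower r, namely SUPT5H (0.934), FXR2 (0.901) and POU2F2 (0.900) for KDM6B, UBP1 (0.910), PTBP3 (0.906) and TAF2 (0.879) for SUZ12, and TAF15 (0.897), ABCA2 (0.892) and CDC42BPB (0.886) for EZH1. For EED they were SLC39A10 (0.840), FANCL (0.822) and MAPK8 (0.820), and for DNMT3A GGA2 (0.763), KATNIP (0.747) and a locus without a symbol (0.736).

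In build GRCh37, the hg19 of the counts, EZH2 lies on chromosome 7 (148504349 to 148581413, minus strand) and UHRF1 and DNMT1 on chromosome 19 (4903092 to 4962165, plus strand, and 10244018 to 10341962, minus strand). HELLS lies on chromosome 10 (96305086 to 96373662, plus strand) and DNMT3B on chromosome 20 (31350191 to 31397165, plus strand). EZH1, SUZ12 and KDM6B lie on chromosome 17 (40852293 to 40897067, minus strand, 30264026 to 30328057, plus strand, and 7737535 to 7758114, plus strand). EED lies on chromosome 11 (85912254 to 85989855, plus strand) and DNMT3A on chromosome 2 (25450724 to 25565459, minus strand). The 5 genes that fell thus came from 4 chromosomes.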

How the data were processed

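RNA-seq of 24 IMR90 samples was analysed, and groups and replicate numbers were read from the sample labels. Per the labels, libraries were stranded TruSeq mRNA on a HiSeq-2500. The authors mapped reads to hg19 with STAR 2.5.0b, used Cutadapt 1.10.0, dropped reads with a mapping quality under 20, and counted with Rsubread. The deposited values are raw counts per Entrez identifier. The annotation and strand setting of the counting are not given in the sources used here, so reads shared with copies or overlapping genes are uncertain. Of 25702 identifiers, 23696 had a RefSeq symbol.

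Counts were tested with edgeR 4.0.16 (R 4.3.3): filterByExpr by group, TMM, and a quasi-likelihood fit of 4 group means over all samples. CPM use TMM library sizes, and log2 CPM a prior count of 2. Ratios were compared by two-sided exact permutation tests in scipy. Intervals are 95%. Canonical transcript lengths and GRCh37 positions came from GENCODE, promoters from RefSeq, build GRCh38.p14. Scripts were tested on simulated data. No 2 libraries of the same group agreed within sampling noise (lowest chi-square per degree of freedom 2.89). Libraries of different groups were not compared in this way. The members, lists and tests were chosen with earlier results of these data known, and give no independent support to a pattern already seen.

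All 10 members were named with their values. Of other lists, the genes called in RIS+shHMGA1 against shHMGA1 with the largest change were named, at most 4 a list and direction, and all genes of lists of up to 4. Alternatives were DESeq2 1.42.0, RLE factors, no filter, an FDR of 0.05, the samples of a contrast only, the replicate number as a block, and samples left out. A fit without numbers 5 and 6 and without growing replicate 4 and RIS replicate 2 was added after seeing the data.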

Additional observations from a re-analysis of the deposited data

Results flagged for a closer look

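Of 48 sets of 6 values (10 genes and 2 ratios in 4 groups), 8 had a sample flagged by Dixon's test. Its gap to the nearest other sample, divided by the range of the 6, exceeded the 95% critical value for 6 samples. Gaps and ranges were taken on the log2 scale, and flagged gene values are printed in CPM. Chance gives about 1 in 20. Growing replicate 4 accounts for 5 of them, with DNMT1 at 37.9 CPM, EZH2 at 7.20 CPM, UHRF1 at 3.09 CPM, HELLS at 0.643 CPM and a log2 ratio of UHRF1 to DNMT1 of -3.55, each the lowest of its group. RIS replicate 2 accounts for 2, with UHRF1 at 25.1 CPM and a log2 ratio of UHRF1 to DNMT1 of -2.43, each the highest of its group. The remaining sample is RIS+shHMGA1 replicate 4, whose log2 ratio of UHRF1 to DNMT1 was -5.02, on 7 counts of UHRF1. No member passed the test of the interaction between hairpin and RAS.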

How the results depend on the processing

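For RIS+shHMGA1 against shHMGA1, 5 members were called under each alternative and in each of 24 fits that left out 1 sample, except without numbers 5 and 6 in every group, where 0 were called of any gene although the fold changes of the 5 stayed within -2.96 and -1.33. When growing replicate 4 and RIS replicate 2 were left out too, 5 were called. For RIS against growing, members called numbered 0 with all samples, 5 without the 2 libraries, 5 with the replicate block and without them, 6 without numbers 5 and 6 and the 2 libraries (EZH1 at -0.74 the sixth), 1 with DESeq2 and 3 at an FDR of 0.05. Leaving out 1 sample gave 0 to 5, with 4 without growing replicate 4 and 5 without RIS replicate 2. For RIS+shHMGA1 against RIS, 1 was called with DESeq2 (UHRF1), 1 with the block and without the 2 libraries, 2 at an FDR of 0.05 and 0 to 2 on leaving out 1 sample, 2 being without growing replicate 4. For shHMGA1 against growing and the interaction 0 were called in every fit. Over all genes, RIS against growing gave 0, 829 with DESeq2, 1537 at an FDR of 0.05, 5331 without the 2 libraries (5246 with the block, 6444 without numbers 5 and 6 too) and 1 with the block alone. RIS+shHMGA1 against shHMGA1 gave 5220, and 0 without numbers 5 and 6. The calls in shHMGA1 against growing were 36, 98 with DESeq2, 85 at an FDR of 0.05, 23 without a filter, 348 without the 2 libraries (484 with the block, 964 without numbers 5 and 6 too), 5 without numbers 5 and 6 and 5 on the samples of the contrast alone. Those in RIS+shHMGA1 against RIS were 341, 1533 with DESeq2, 2898 at an FDR of 0.05, 189 without a filter, 1677 without the 2 libraries (1938 with the block, 1404 without numbers 5 and 6 too) and 15 without numbers 5 and 6. The interaction gave 0, 3 with DESeq2, 2 at an FDR of 0.05, 1 without the 2 libraries (2 with the block) and 8 without numbers 5 and 6 too.

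Without the 2 libraries the log2 ratio of EZH2 to EZH1 differed by 0.56 between shHMGA1 and growing (exact permutation p = 0.091) and by 0.56 between RIS+shHMGA1 and RIS (exact permutation p = 0.013), and the ratio of UHRF1 to DNMT1 by -0.11 between shHMGA1 and growing (exact permutation p = 0.28). On leaving out 1 sample, EZH2 to EZH1 ranged from -1.35 to -0.96 (RIS against growing), -1.61 to -1.40 (RIS+shHMGA1 against shHMGA1), 0.56 to 0.95 (shHMGA1 against growing, where 9 of 12 fits missed the threshold) and 0.26 to 0.56 (RIS+shHMGA1 against RIS). UHRF1 to DNMT1 ranged from -1.06 to -0.78, -1.67 to -1.41, -0.11 to 0.18 and -0.72 to -0.45. Differences that changed sign, such as that of EZH2 between RIS+shHMGA1 and RIS (-0.07, and 0.30 without the 2 libraries), were called in neither fit. The list counts moved by at most 1 gene under RLE factors, and all genes' median by under 0.1. The cause of these changes was not tested.

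No label says what a shared replicate number marks, and in no comparison were the correlations of all 6 same-numbered pairs over 0.1, so the samples were not taken as paired. The correlations ran from -0.59 to 0.83 in RIS against growing (3 of 6 over 0.1), -0.02 to 0.33 in RIS+shHMGA1 against shHMGA1, -0.20 to 0.53 in RIS+shHMGA1 against RIS and 0.07 to 0.48 in shHMGA1 against growing (5 of 6 in each). Of 12 samples 3, 4, 4 and 8 were closest to their own number, a hint of shared deviations, strongest in the last. The mean correlation of same-numbered samples was 0.135, 0.156, 0.238 and 0.326 in that order. For samples of other numbers it was lower each time, at -0.107, -0.032, -0.038 and -0.059, so pairing is not excluded. These values include growing replicate 4 and RIS replicate 2. With the replicate block over all samples 5 members were called in RIS+shHMGA1 against shHMGA1 and 0 in the other comparisons, and over all genes the calls in RIS+shHMGA1 against RIS went from 341 to 1637. Depth limits DNMT3B, TET1, CBX2 and DAZL, whose lowest libraries hold 0 to 2 counts.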
